A study of Mus musculus with 8 samples.

Results

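The genes that mammalian liver uses to sense, store and move iron, together with the metallothioneins, were examined in livers in which Eif4ebp3 had been knocked down. The 10 genes were chosen by name, from 55536 genes with an identifier, and all 10 were among the 15375 genes with enough counts to test. They are the hepcidin genes Hamp and Hamp2, the hepcidin inducer Bmp6, the iron uptake genes Tfrc and Trf, the ferritin genes Fth1 and Ftl1, the iron exporter Slc40a1, and the metallothionein genes Mt1 and Mt2. The knockdown group comprised 4 livers from lean wild-type C57BL/6 mice aged 2 months that had received 0.1 OD of an adenovirus with a short hairpin RNA (shRNA) against Eif4ebp3, an inhibitor of cap-dependent translation. The control group comprised 4 livers from mice of the same strain and age that had received the same dose of an adenovirus with an shRNA against lacZ, a bacterial gene that mice do not have. The labels number the samples of a group 1 to 4 without saying that each is another animal, so a liver is here 1 sample and n counts samples. All mice carried virus for 1 week and were fasted overnight before the liver was taken, so both groups share the adenovirus and the fast. The adenovirus is not labelled as restricted to a cell type, and livers without virus were not analysed here.

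Hepcidin, the peptide that Hamp encodes, is made by hepatocytes and binds ferroportin, the exporter encoded by Slc40a1, which is then degraded, so less iron leaves macrophages, hepatocytes and the gut. Hamp transcription is raised by BMP6 from endothelial cells through SMAD proteins, and by the inflammatory cytokine IL6 through STAT3. Within cells, iron regulatory proteins bind hairpins named iron-responsive elements when iron is scarce: they block translation of ferritin and ferroportin mRNAs from the 5′ end and protect the transferrin receptor mRNA from decay at its 3′ end. Metallothioneins are small cysteine-rich proteins that bind zinc and copper, and their genes answer to metals through the factor MTF1 and to glucocorticoids.

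The iron-responsive elements of the member transcripts are shown because the iron regulatory proteins bind messages through hairpins of this form. GENCODE member transcripts on the mm10 assembly were searched for a CAGTGN or CAGGGN loop on 5 upper stem pairs and a bulged C. Pairing of a lower stem was not required. The search found 4 elements in the 3′ untranslated region of Tfrc and 1 each in the 5′ untranslated regions of Fth1, Ftl1 and Slc40a1. They are printed 5′ to 3′ on the strand of the gene, with the loop of 6 bases in capitals.
Tfrc, chr16:32631219-32631247, + strand: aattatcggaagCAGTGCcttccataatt
Tfrc, chr16:32631598-32631626, + strand: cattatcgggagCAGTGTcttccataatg
Tfrc, chr16:32631663-32631691, + strand: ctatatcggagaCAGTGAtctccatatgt
Tfrc, chr16:32631710-32631738, + strand: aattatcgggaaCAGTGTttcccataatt
Fth1, chr19:9982732-9982760, + strand: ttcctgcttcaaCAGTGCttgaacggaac
Ftl1, chr7:45459779-45459807, - strand: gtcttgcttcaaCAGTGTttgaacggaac
Slc40a1, chr1:45925465-45925493, - strand: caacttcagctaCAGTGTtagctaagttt

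By the same search, 39 of 22527 protein-coding genes (0.173%) had at least 1 such hairpin in the 5′ untranslated region and 184 (0.817%) had at least 1 in the 3′ untranslated region. Tfrc was the only gene, 1 of 22527, with at least 4 in the 3′ untranslated region. These matches describe letters and pairing and do not show that a protein binds there.

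The promoters of the hepcidin pair and of the metallothionein pair are shown because the members of each pair had lower mean levels in the knockdown livers and differ in the letters known from their regulators. They are the RefSeq sequences, on GRCm38.p6, from 250 bases before to 50 bases after the start of each gene, which were found for 8 of the 10 genes. Capitals mark, on either strand, the letters GGCGCC (the core that BMP-responsive SMAD elements hold) and TTCNNNGAA (the STAT site) in the hepcidin genes, and TGCACNC or TGCGCNC (the core of a metal response element) in the metallothionein genes. None of the marked matches overlaps another.
Hamp, chr7:30943980-30944279, - strand: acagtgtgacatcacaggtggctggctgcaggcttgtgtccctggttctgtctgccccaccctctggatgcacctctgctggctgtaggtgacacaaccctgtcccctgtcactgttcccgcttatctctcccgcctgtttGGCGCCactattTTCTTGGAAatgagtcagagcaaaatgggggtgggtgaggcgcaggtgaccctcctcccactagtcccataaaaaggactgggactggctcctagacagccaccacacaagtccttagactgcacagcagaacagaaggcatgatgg
Hamp2, chr7:30924132-30924431, - strand: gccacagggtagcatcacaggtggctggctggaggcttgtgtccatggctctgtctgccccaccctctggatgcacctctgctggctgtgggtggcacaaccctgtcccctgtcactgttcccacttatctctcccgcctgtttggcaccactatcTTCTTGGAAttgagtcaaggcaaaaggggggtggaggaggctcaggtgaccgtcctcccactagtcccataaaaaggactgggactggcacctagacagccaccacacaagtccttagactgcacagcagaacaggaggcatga
Mt1, chr8:94178839-94179138, + strand: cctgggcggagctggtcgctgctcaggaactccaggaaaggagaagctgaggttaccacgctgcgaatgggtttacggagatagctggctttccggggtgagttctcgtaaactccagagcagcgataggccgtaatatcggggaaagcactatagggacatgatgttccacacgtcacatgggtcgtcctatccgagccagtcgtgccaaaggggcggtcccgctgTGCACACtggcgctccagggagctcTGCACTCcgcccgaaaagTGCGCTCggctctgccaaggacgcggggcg
Mt2, chr8:94172368-94172667, + strand: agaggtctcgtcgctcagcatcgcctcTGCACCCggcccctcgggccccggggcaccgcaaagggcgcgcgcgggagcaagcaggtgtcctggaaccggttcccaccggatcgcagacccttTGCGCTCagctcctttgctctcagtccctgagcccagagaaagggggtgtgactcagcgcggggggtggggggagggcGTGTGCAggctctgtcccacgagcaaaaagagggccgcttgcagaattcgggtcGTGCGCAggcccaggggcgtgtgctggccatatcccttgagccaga

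Of 32851 promoters of this length, 11.9% hold GGCGCC and 8.30% hold TTCNNNGAA. Hamp holds GGCGCC at 109 bases and TTCNNNGAA at 97 bases before its start, and Hamp2 holds TTCNNNGAA at 94 bases before its start and no GGCGCC in this window, although the 2 promoters are identical at 276 of 297 aligned bases (92.9%). Mt1 holds 3 and Mt2 holds 4 metal response cores, against at least 3 in 1.97% and at least 4 in 0.517% of all promoters. In Mt1 the cores lie 23 bases before the start and at bases 3 and 21 counted from it. In Mt2 they lie 223, 128 and 50 bases before the start and at base 5 counted from it. The promoters of Mt1 and Mt2 are identical at only 55.1% of aligned bases. The antioxidant response core TGACNNNGC, which 12.4% of promoters hold, occurs once in the Mt2 window, 79 bases before the start, and not in the Mt1 window. These matches describe letters and do not show that a factor binds there.

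The estimated counts of a liver summed to 25330306 to 32389444 in the knockdown livers and 24371461 to 27079278 in the control livers. Eif4ebp3 itself averaged 20.1 ± 12.1 counts per 1000000 counts (CPM) in the knockdown livers and 190 ± 101 CPM in the control livers (SD, n = 4 each), a log2 fold change of -3.24 ± 0.53 (SE; adjusted p = 0.000379, edgeR), and control replicate 4 had the lowest control level, 49.3 CPM. Control replicate 4 also stood apart on the first principal component of all genes, at -40.8 against -74.5 to -64.8 in the other controls, while the knockdown livers lay at 49.2 to 70.8. CPM are here normalised by the TMM method, which sets the typical gene to no change. Its factors were 1.15 to 1.26 in the knockdown livers and 0.776 to 0.890 in the control livers, so without them, that is with plain total-count scaling, the median of all genes lies 0.567 higher on the log2 scale. A gene is called higher or lower where the adjusted p of edgeR's quasi-likelihood test, over all genes tested, was under 0.05. Of all genes tested 57.2% changed by that rule, 29.5% higher and 27.8% lower in the knockdown livers, and under total-count scaling 63.9% were higher and 7.72% lower.

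Of the 10 genes, Tfrc, Fth1 and Slc40a1 were higher in the knockdown livers, Hamp, Hamp2, Bmp6 and Mt1 were lower, and Trf, Ftl1 and Mt2 did not pass the test. The 7 of 10 that changed stand beside 57.2% of all genes, so the number of changes is near the background. The groups did not overlap for 6 of the 10 genes (Hamp, Bmp6, Tfrc, Trf, Fth1 and Slc40a1), against 52.1% of all genes tested. The median log2 fold change of the 10 genes was -0.25, against -0.00 for all genes tested. The number lower was 2 when control replicate 4, knockdown replicate 1 or knockdown replicate 2 was left out. Under total-count scaling 5 were higher (Tfrc, Trf, Fth1, Ftl1 and Slc40a1) and only Hamp was lower.

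**Figure D1:**
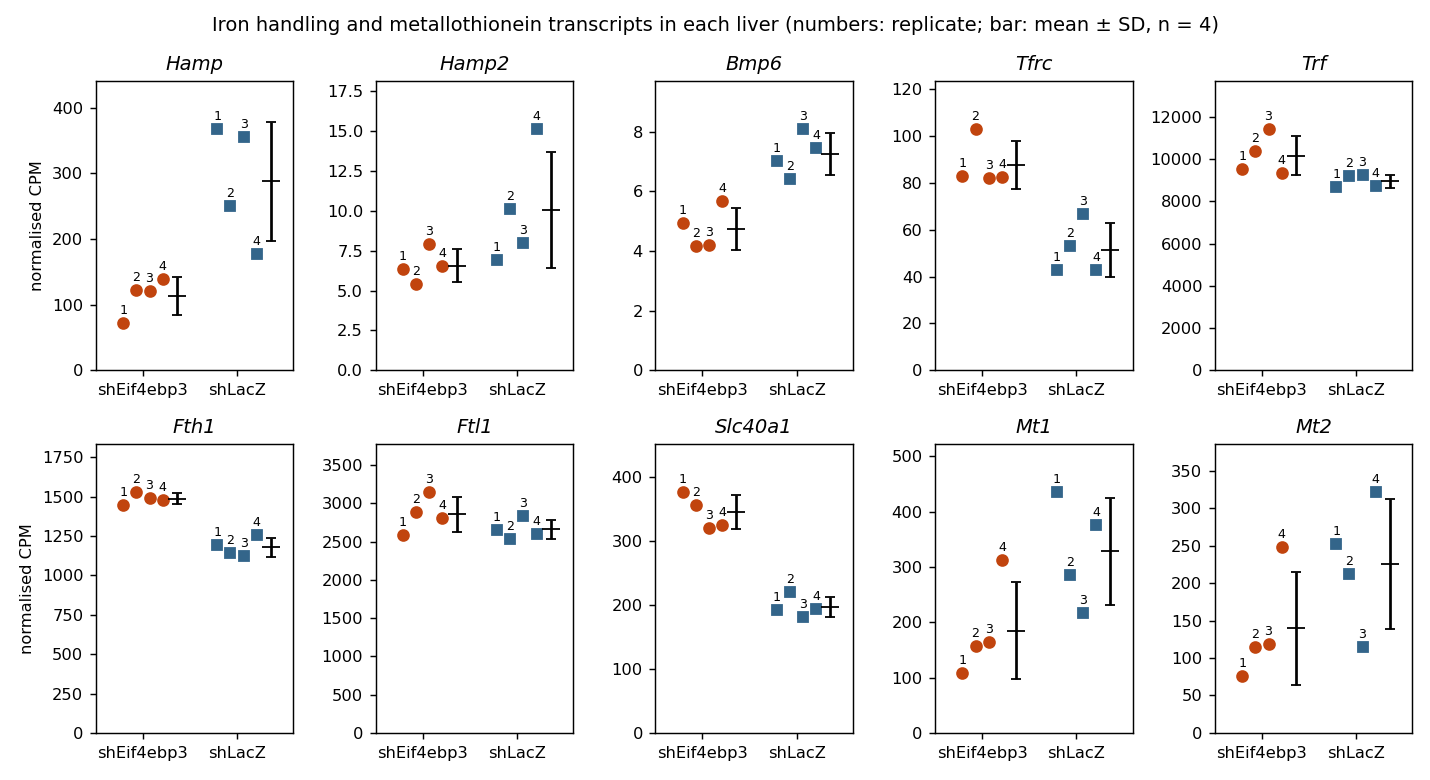
Normalised CPM of the 10 genes in each liver, with knockdown (shEif4ebp3) livers as circles on the left and control (shLacZ) livers as squares on the right of each panel, numbered by replicate, and bars for the mean ± SD of 4 livers. All knockdown livers lie below all controls for Hamp (72.2 to 138 against 177 to 367 CPM) and above them for Slc40a1 (321 to 377 against 181 to 219.7 CPM), whereas the groups overlap for Hamp2, Ftl1, Mt1 and Mt2.

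Hamp (ENSMUSG00000050440), the hepcidin gene at chr7:30942368-30944032 on the minus strand of mm10, had the largest fitted change of the 10 genes under TMM scaling. The knockdown livers held 72.2, 122, 120.2 and 138 CPM in replicates 1 to 4, and the control livers 367, 251, 356 and 177 CPM. Every knockdown liver was lower than every control, and control replicate 4 was the control nearest to them. The means were 113 ± 28.5 CPM in the knockdown livers and 288 ± 90.5 CPM in the control livers (SD, n = 4 each), a log2 fold change of -1.35 ± 0.24 (SE; adjusted p = 0.000767, edgeR), or a 2.54-fold lower level. The call held under all alternatives run. The log2 fold change was -0.76 under total-count scaling, where those of Slc40a1, Tfrc and Fth1 were larger in size, and -1.52 without control replicate 4. In the authors' deposited table Hamp has a log2 fold change of -1.31 with an adjusted p of 1.14e-07, and is the only one of the 10 genes marked as significant there. The mark does not follow the adjusted p alone: that table also lists adjusted p-values of 1.61e-16 for Slc40a1, 4.57e-07 for Fth1, 4.63e-06 for Tfrc, 0.000588 for Bmp6 and 0.0236 for Hamp2. The log2 fold changes of these 5 genes there lie between -1 and 1. Mt1, called lower here, has an adjusted p of 0.0801 in that table.

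Hepatocytes, the cells that make hepcidin and transferrin and also express Tfr2 and Tmprss6, were represented by 13 marker genes. Of these 12 were lower in the knockdown livers and the other did not pass, with a median log2 fold change of -1.03, or 8 lower and 1 higher with a median of -0.46 under total-count scaling. Their summed level was 53394 to 69358 CPM in the knockdown livers and 67475 to 93915 CPM in the control livers, so the sums overlapped. No marker of this list was at 0 in all livers. The part of the lower hepatocyte markers in the Hamp, Tfr2 and Tmprss6 results was not tested.

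Hamp2 (ENSMUSG00000056978), the second hepcidin gene of the mouse, lies near Hamp at chr7:30922372-30924681 on the same strand, and its transcript is identical to that of Hamp at 94.6% of aligned bases. Knockdown replicates 1 to 4 held 6.34, 5.41, 7.91 and 6.54 CPM, and the control livers 6.92, 10.1, 7.98 and 15.1 CPM. Knockdown replicate 3 lay above control replicate 1, so the groups overlapped, and the highest control was replicate 4, the liver with the lowest Hamp of its group. The means were 6.55 ± 1.03 CPM in the knockdown livers and 10.03 ± 3.64 CPM in the control livers (SD, n = 4 each), with a log2 fold change of -0.62 ± 0.23 (SE; adjusted p = 0.0377, edgeR). That call was lost without control replicate 4 (log2 fold change -0.35, adjusted p = 0.0982, edgeR), under total-count scaling (-0.07), and without knockdown replicate 1, 2 or 4 or control replicate 2 (adjusted p = 0.0681 to 0.0970, edgeR). Of the 50-base stretches of the Hamp transcript 16.6% also occur in Hamp2, and of those of Hamp2 15.5% occur in Hamp, so reads from the abundant Hamp could reach Hamp2 in part, depending on how the authors' counting divides them.

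The ratio of Hamp2 to Hamp within a liver is free of the scaling between livers. It was 0.0445 to 0.0881 in the knockdown livers and 0.0189 to 0.0855 in the control livers. On the log2 scale the ratio averaged -4.08 ± 0.46 in the knockdown livers and -4.84 ± 0.98 in the control livers (SD, n = 4 each), a difference of 0.77 that was smaller than the spread of the controls (two-sided exact permutation test, p = 0.2, adjusted p = 0.3 over 3 ratios).

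Bmp6 (ENSMUSG00000039004), which encodes the ligand that liver endothelial cells send to hepatocytes when iron is high, lies at chr13:38345107-38500302 on the plus strand. The knockdown livers held 4.92, 4.16, 4.20 and 5.67 CPM, and the control livers 7.01, 6.40, 8.08 and 7.45 CPM. The groups did not overlap, and the levels were low in all livers. The means were 4.74 ± 0.715 CPM in the knockdown livers and 7.24 ± 0.707 CPM in the control livers (SD, n = 4 each), a log2 fold change of -0.61 ± 0.15 (SE; adjusted p = 0.00458, edgeR). Under total-count scaling the difference was -0.04 (adjusted p = 0.838, edgeR) and no longer passed. The exons of Bmp6 overlap those of Txndc5 on the opposite strand, which held 5186 to 6145 estimated counts in the knockdown livers and 2668 to 3749 in the control livers. No label states whether counting used the strand. Markers of liver sinusoidal endothelium, the source of BMP6, summed to 385 to 704 CPM in the knockdown livers and 590 to 673 CPM in the control livers, with 1 of 14 higher and 2 lower, and 8 of the 14 changed without knockdown replicate 1. No marker of this list was at 0 in all livers. Their part in the Bmp6 result was not tested. In RNA from whole liver, fewer cells of a type and less RNA per cell cannot be told apart.

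Other genes of hepcidin regulation did not move as a block. Of 22 tested, 6 were higher and 9 were lower in the knockdown livers, with a median log2 fold change of -0.06, and under total-count scaling 15 were higher and 3 lower. The second transferrin receptor Tfr2, an iron sensor of hepatocytes, averaged 232 ± 34.6 CPM in the knockdown livers and 521 ± 10.4 CPM in the control livers (SD, n = 4 each; log2 fold change -1.17, adjusted p = 5.7e-06, edgeR). Tmprss6, the protease that restrains hepcidin by acting against hemojuvelin, averaged 237 ± 26.7 CPM in the knockdown livers and 411 ± 13.8 CPM in the control livers (log2 fold change -0.79). Bmp2, another endothelial inducer of hepcidin, averaged 11.9 ± 4.33 CPM in the knockdown livers and 20.3 ± 1.95 CPM in the control livers (log2 fold change -0.77, a call lost under total-count scaling).

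Among genes known to answer to BMP and SMAD signals, Id1, Id2, Id3 and Smad7 were higher and Atoh8 was lower. Id2, named after its values were seen, averaged 82.3 ± 9.88 CPM in the knockdown livers and 45.9 ± 8.66 CPM in the control livers (log2 fold change 0.84, adjusted p = 0.00027, edgeR). Id1 averaged 17.9 ± 4.22 CPM in the knockdown livers and 4.01 ± 1.25 CPM in the control livers (log2 fold change 2.15), and Id3 averaged 71.9 ± 6.24 CPM in the knockdown livers and 21.9 ± 9.62 CPM in the control livers (log2 fold change 1.72). Smad7, an inhibitory SMAD that BMP and TGF-beta signals induce, had a log2 fold change of 0.97, while Smad6, with 0.53, did not pass (adjusted p = 0.131 with edgeR) except without control replicate 4 (0.76) and under total-count scaling (1.08). Atoh8, a transcription factor gene that answers to BMP signals, was lower, as Hamp was, at 15.5 ± 4.02 CPM in the knockdown livers and 26.1 ± 3.72 CPM in the control livers (SD, n = 4 each; log2 fold change -0.76, adjusted p = 0.00299, edgeR), and was named after its values were seen. Neither Hfe (log2 fold change 0.15, adjusted p = 0.0898, edgeR) nor the hemojuvelin gene, listed as Hfe2 (0.14, adjusted p = 0.266), passed, and both passed as higher under total-count scaling.

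Of 23 genes of the IL6 and STAT3 acute phase response, 7 were higher and 11 were lower, with a median of -0.57, or 11 higher and 6 lower under total-count scaling. Lcn2, lipocalin 2, which binds bacterial iron carriers, averaged 320.2 ± 57.7 CPM in the knockdown livers and 20.2 ± 7.42 CPM in the control livers (SD, n = 4 each; log2 fold change 3.98, adjusted p = 7.01e-07, edgeR). Steap4, a metalloreductase, rose as well, with a log2 fold change of 1.03. Crp and the fibrinogen gene Fgb, both acute phase proteins made by hepatocytes, fell by 1.64 and 1.15 on the log2 scale. Fgb is also among the hepatocyte markers counted above. The acute phase genes therefore went both ways beside the lower Hamp.

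Tfrc (ENSMUSG00000022797), the receptor through which cells take up transferrin-bound iron, lies at chr16:32608920-32632794 on the plus strand and carries the 4 hairpins printed above. Its level was 83.0, 103, 82.0 and 82.6 CPM in the knockdown livers and 42.9, 52.9, 66.8 and 42.7 CPM in the control livers. Every knockdown liver was above every control, and knockdown replicate 2 was the highest. The means were 87.6 ± 10.2 CPM in the knockdown livers and 51.3 ± 11.4 CPM in the control livers (SD, n = 4 each), a log2 fold change of 0.77 ± 0.14 (SE; adjusted p = 0.000884, edgeR), or 1.71-fold higher. It was 0.69 without control replicate 4 and 1.35 under total-count scaling. Dividing cells carry much transferrin receptor, and all 16 proliferation genes tested were higher in the knockdown livers, summing to 274 to 379 CPM against 66.9 to 114 CPM in the control livers. Among them the replication genes Mcm5, Mcm2 and Pcna and the mitotic kinase gene Cdk1 had log2 fold changes of 2.73, 2.64, 1.38 and 2.29. Erythroid markers, for cells that also carry the receptor, summed to 521 to 692 CPM in the knockdown livers and 459 to 774 CPM in the control livers, with 2 of 10 higher and 2 lower. Without knockdown replicate 2 the erythroid markers that changed numbered 2, and without control replicate 2 they numbered 8. No marker of either list was at 0 in all livers. The part of either set of cells in the Tfrc result was not tested.

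Trf (ENSMUSG00000032554), transferrin, the iron carrier that hepatocytes secrete into plasma, lies at chr9:103204001-103230444 on the minus strand and was the most abundant of the 10 transcripts. The knockdown livers held 9553, 10385, 11420.2 and 9337 CPM, and the control livers 8682, 9201, 9239 and 8708 CPM. Every knockdown liver was above every control, although knockdown replicates 1 and 4 were close to the highest controls. The means were 10174 ± 946 CPM in the knockdown livers and 8957 ± 303 CPM in the control livers (SD, n = 4 each), a log2 fold change of 0.18 ± 0.11 (SE), which did not pass (adjusted p = 0.193, edgeR). Without normalisation factors it was 0.75 and passed: Trf held 1.13 to 1.31% of all counts in the knockdown livers and 0.673 to 0.775% in the control livers. Its larger share of all counts thus came with no called change relative to the typical gene. Of its 50-base stretches 79.8% occur also in Gm20425, an overlapping gene on the same strand that held 444 to 639 estimated counts in the knockdown livers and 177 to 247 in the control livers, and was named after its values were seen.

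Fth1 (ENSMUSG00000024661), the ferritin heavy chain, whose ferroxidase site loads iron into the ferritin shell, lies at chr19:9980598-9985098 on the plus strand. In the knockdown livers it stood at 1450.5, 1531, 1494 and 1476 CPM, and in the control livers at 1194, 1141, 1122 and 1257 CPM. The groups did not overlap, and Fth1 varied least among the 10 transcripts in the knockdown livers, with a coefficient of variation of 2.27%. The means were 1488 ± 33.7 CPM in the knockdown livers and 1179 ± 60.6 CPM in the control livers (SD, n = 4 each), a log2 fold change of 0.34 ± 0.08 (SE; adjusted p = 0.00502, edgeR), or 1.26-fold higher. The log2 fold change was 0.90 under total-count scaling.

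Ftl1 (ENSMUSG00000050708), the ferritin light chain, which favours iron deposition in the shell, lies at chr7:45457944-45459884 on the minus strand. Its level was 2583, 2882, 3149 and 2805 CPM in the knockdown livers and 2657, 2538, 2838 and 2602 CPM in the control livers. The ranges overlapped, and the log2 fold change of 0.10 ± 0.10 (SE) did not pass (adjusted p = 0.399, edgeR), whereas it was 0.67 and passed under total-count scaling. Of the 50-base stretches of Ftl1 78.9% occur also in 15 other genes, mostly processed copies. Counts given to those copies came to 0.238 to 0.275% of those of Ftl1 in the knockdown livers and 0.147 to 0.245% in the control livers, so little was assigned to them.

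The heavy and light chains build mixed ferritin shells, so their ratio describes the makeup of the message pool. The log2 ratio of Fth1 to Ftl1 was -0.94 ± 0.10 in the knockdown livers and -1.17 ± 0.12 in the control livers (SD, n = 4 each), a difference of 0.24. The groups did not separate fully: the two-sided exact permutation test gave p = 0.0571 (adjusted p = 0.171 over 3 ratios), where 4 against 4 livers cannot go below 0.0286.

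Other genes of ferritin turnover and iron sensing were mixed, with 6 of 16 higher and 3 lower and a median of 0.06, or 13 higher under total-count scaling, where the other 3 did not pass. Hmox1, heme oxygenase, which frees iron from heme, averaged 95.5 ± 10.1 CPM in the knockdown livers and 33.6 ± 5.27 CPM in the control livers (SD, n = 4 each; log2 fold change 1.51, adjusted p = 2.81e-06, edgeR). Blvrb, which acts later in heme breakdown, had a log2 fold change of 1.04. Ncoa4, the receptor that takes ferritin to the lysosome, averaged 194 ± 17.7 CPM in the knockdown livers and 317 ± 83.0 CPM in the control livers (log2 fold change -0.70). The Ncoa4 groups overlapped, as control replicate 4, at 205 CPM, lay below knockdown replicate 4, at 220 CPM. Without control replicate 4 its log2 fold change was -0.87. Of the iron regulatory proteins, Ireb2 fell by 0.65 on the log2 scale, and Aco1, with 0.18, did not pass (adjusted p = 0.0525, edgeR), while Fbxl5, the subunit that targets them for decay when iron is present, rose by 0.57. The calls of Ncoa4 and Ireb2 were lost under total-count scaling, and Aco1 passed as higher. Every knockdown liver was above every control in Aco1 (170 to 176 against 137 to 161 CPM). In the authors' deposited table Aco1 has an adjusted p of 0.0365. Hmox1 is also a target of NRF2, the oxidative stress factor that is known to induce ferritin genes. Of 17 other NRF2 targets, 15 were higher and 1 was lower, with a median of 1.88, among them Srxn1 (log2 fold change 2.44), Pgd (2.19), Gstm1 (2.89) and Cbr3 (6.47). The part of NRF2 in the Fth1 result was not tested.

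Slc40a1 (ENSMUSG00000025993), ferroportin, the exporter through which iron leaves cells, lies at chr1:45908068-45926523 on the minus strand. The knockdown livers held 377, 357, 321 and 326 CPM, and the control livers 192, 219.7, 181 and 194 CPM. All knockdown livers stood above all controls by a margin wider than the range within either group. The means were 345 ± 26.6 CPM in the knockdown livers and 197 ± 16.3 CPM in the control livers (SD, n = 4 each), a log2 fold change of 0.81 ± 0.09 (SE; adjusted p = 2.22e-05, edgeR), or 1.75-fold higher. It passed under all alternatives run, and was 1.38 under total-count scaling. None of its 50-base stretches occurs in another annotated gene.

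Macrophages of the liver, which recycle iron from red cells, are rich in ferroportin. Of 14 Kupffer cell and macrophage markers tested, 13 were higher in the knockdown livers and the other did not pass, with a median log2 fold change of 1.39 and a summed level of 1686 to 1961 CPM against 653 to 862 CPM in the control livers. The macrophage iron transporter gene Slc11a1 averaged 60.7 ± 5.32 CPM in the knockdown livers and 19.2 ± 2.05 CPM in the control livers (SD, n = 4 each; log2 fold change 1.66), and Slc48a1, which moves heme out of the lysosome, averaged 146 ± 13.1 CPM in the knockdown livers and 53.3 ± 2.94 CPM in the control livers (log2 fold change 1.45). Of 15 stellate cell markers 10 were higher and 5 did not pass, and they summed to 617 to 1043 CPM in the knockdown livers and 256 to 320.3 CPM in the control livers. Of 11 T and NK cell markers 9 were higher and 1 lower, with sums of 45.4 to 64.1 CPM in the knockdown livers and 16.1 to 30.2 CPM in the control livers. Of 7 cholangiocyte markers 5 were higher and 2 did not pass, with sums of 83.4 to 119.6 CPM in the knockdown livers and 47.7 to 60.5 CPM in the control livers. Of 5 neutrophil markers 0 changed with edgeR, DESeq2 or limma-voom, also at an unadjusted p under 0.05 with edgeR, and 1 changed without knockdown replicate 3, with sums of 2.89 to 7.76 CPM in the knockdown livers and 1.54 to 6.94 CPM in the control livers. No marker of these lists was at 0 in all livers. The part of these cells in the Slc40a1 and Hmox1 results was not tested.

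Of the 18 other genes of iron transport, ferroxidases and reductases tested, 4 were higher and 4 lower, with a median of -0.01, or 12 higher and 1 lower under total-count scaling. Slc39a14, an importer of iron not bound to transferrin, and of zinc and manganese, averaged 149 ± 13.3 CPM in the knockdown livers and 263 ± 30.0 CPM in the control livers (SD, n = 4 each; log2 fold change -0.83, adjusted p = 5.11e-05, edgeR). Slc46a1, a folate transporter that also carries heme, fell by 0.72 on the log2 scale, a call lost under total-count scaling. Ceruloplasmin, the plasma ferroxidase encoded by Cp that works with ferroportin, had a log2 fold change of -0.09, which did not pass (adjusted p = 0.428, edgeR) and was 0.48 under total-count scaling.

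**Figure D2:**
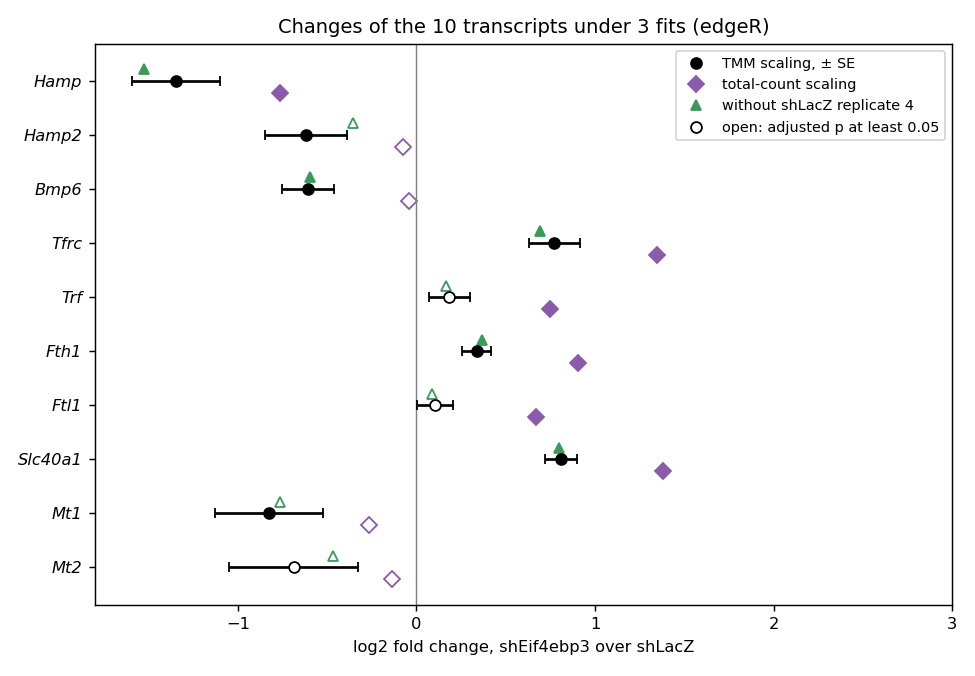
Log2 fold change of the 10 genes, knockdown (shEif4ebp3) over control (shLacZ), under TMM scaling (circles with ± SE), total-count scaling (diamonds) and without control replicate 4 (triangles), with open symbols where the adjusted p was at least 0.05. Total-count scaling moves all 10 genes to the right, so that Hamp stays lower (-0.76), Bmp6 and Hamp2 come near 0 (-0.04 and -0.07), and Trf and Ftl1 pass as higher (0.75 and 0.67).

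Mt1 (ENSMUSG00000031765) and Mt2 (ENSMUSG00000031762) lie side by side on the plus strand, at chr8:94179082-94180327 and chr8:94172664-94173568. Mt1 held 108, 157, 164 and 312 CPM in the knockdown livers and 436, 286, 217 and 375 CPM in the control livers. Knockdown replicates 1 to 3 lay below all controls, and knockdown replicate 4 lay among them. The means were 185 ± 88.3 CPM in the knockdown livers and 328 ± 96.6 CPM in the control livers (SD, n = 4 each), a log2 fold change of -0.83 ± 0.30 (SE; adjusted p = 0.0363, edgeR). The call was lost with DESeq2 (adjusted p = 0.0634), under total-count scaling (-0.26), without control replicate 4 (-0.76, adjusted p = 0.0645, edgeR), and without knockdown replicate 1, 2 or 3 or control replicate 1 (adjusted p = 0.0831 to 0.0991, edgeR).

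Mt2 held 76.1, 115, 119 and 248 CPM in the knockdown livers and 253, 212, 114 and 322 CPM in the control livers. Control replicate 3 lay below knockdown replicates 2 to 4, and knockdown replicate 4 lay among the other controls. Control replicate 3 was the lowest control and knockdown replicate 4 the highest knockdown liver in Mt1 as well. The means were 139.6 ± 75.0 CPM in the knockdown livers and 225 ± 86.8 CPM in the control livers (SD, n = 4 each). With a log2 fold change of -0.69 ± 0.36 (SE), Mt2 did not pass (adjusted p = 0.126, edgeR). It passed at -1.12 without knockdown replicate 4 and at -0.91 without control replicate 3. The exons of Mt2 overlap those of Gm45774 on the opposite strand, which held 42 to 88 estimated counts in the knockdown livers and 55 to 184 in the control livers.

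The 2 metallothionein transcripts kept a narrower ratio in the knockdown livers than in the controls, a spread that was not tested. The log2 ratio of Mt2 to Mt1 averaged -0.43 ± 0.07 in the knockdown livers and -0.59 ± 0.32 in the control livers (SD, n = 4 each), a difference of 0.16 (two-sided exact permutation test, p = 0.4, adjusted p = 0.4 over 3 ratios). The ratio was thus close in all knockdown livers although their levels differed by up to 2.90-fold in Mt1 and 3.26-fold in Mt2. The coding sequences of the pair are identical at 145 of 183 bases (79.2%), and the transcripts share no 50-base stretch.

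**Figure D3:**
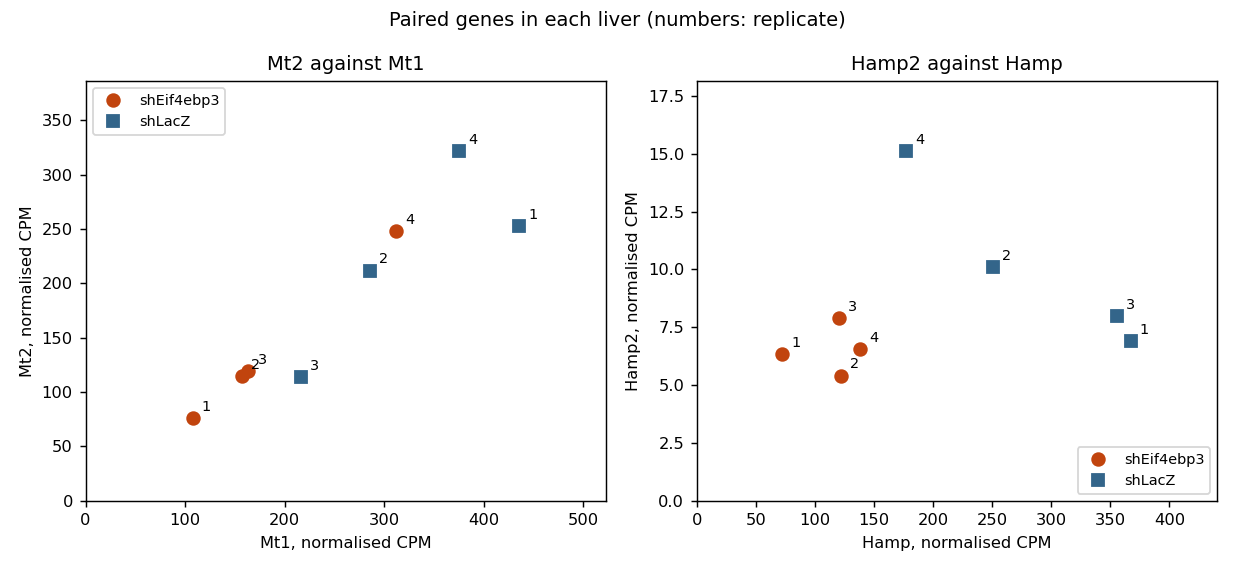
Left, normalised CPM of Mt2 against Mt1, and right, of Hamp2 against Hamp, in each liver, with knockdown (shEif4ebp3) livers as circles and control (shLacZ) livers as squares, numbered by replicate. Livers with more Mt1 mostly had more Mt2, although control replicate 1 has the highest Mt1 (436 CPM) and control replicate 4 the highest Mt2 (322 CPM), with knockdown replicate 4 (312 and 248 CPM) among the controls, whereas control replicate 4 has the highest Hamp2 (15.1 CPM) and the lowest Hamp (177 CPM) of its group.

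Genes around the metallothioneins were mixed. Of 28 genes of zinc and copper handling tested, 9 were higher and 7 were lower, with a median of 0.04, or 21 higher and 3 lower under total-count scaling. Neither Mtf1, the metal-sensing factor that drives metallothionein genes (log2 fold change -0.24, adjusted p = 0.160, edgeR), nor its target Slc30a1, a zinc exporter (-0.20, adjusted p = 0.330), passed, and both values turn positive under total-count scaling (0.34, which passed, and 0.35). Without control replicate 4 Mtf1 passed as lower (-0.36, adjusted p = 0.0143, edgeR). It also passed as lower with only the samples whose code holds the letter C (-0.28, adjusted p = 0.0264, edgeR). Slc39a4, a zinc importer, averaged 161 ± 9.41 CPM in the knockdown livers and 63.9 ± 5.23 CPM in the control livers (SD, n = 4 each; log2 fold change 1.33, adjusted p = 7.01e-07, edgeR). Slc30a10, a manganese exporter, averaged 12.1 ± 4.13 CPM in the knockdown livers and 48.0 ± 8.12 CPM in the control livers (log2 fold change -1.98). The copper-zinc superoxide dismutase gene Sod1 and Ccs, the chaperone that brings it copper, fell by 0.75 and 1.12 on the log2 scale.

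Genes induced by glucocorticoids, which also raise metallothioneins in liver, were mostly lower, with 9 of 15 lower and 1 higher and a median of -0.90, or 6 lower and 2 higher under total-count scaling. Tat, tyrosine aminotransferase, averaged 541 ± 162 CPM in the knockdown livers and 3190 ± 1204 CPM in the control livers (SD, n = 4 each; log2 fold change -2.56, adjusted p = 4.07e-05, edgeR). Tat is also among the hepatocyte markers counted above, which were mostly lower. Tsc22d3, which encodes the glucocorticoid-induced leucine zipper, averaged 69.7 ± 4.64 CPM in the knockdown livers and 198 ± 67.3 CPM in the control livers (log2 fold change -1.50), and Klf9 and Errfi1 fell by 0.96 and 0.95. Mt1, called lower in 12 of 21 fits, stood beside lower Tat, Tsc22d3, Klf9 and Errfi1. Among the controls, Tat was highest in replicate 3 (4456 CPM), which had the lowest Mt1 (217 CPM). Tat (1662 CPM) and Tsc22d3 (98.8 CPM) were lowest in control replicate 4, where Mt1 was at 375 CPM. Among the knockdown livers, Klf9 (99.3 CPM) and Errfi1 (980 CPM) were highest in replicate 4, which had the highest Mt1 (312 CPM). The tie between Mt1 and these genes was not tested.

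**Figure D4:**
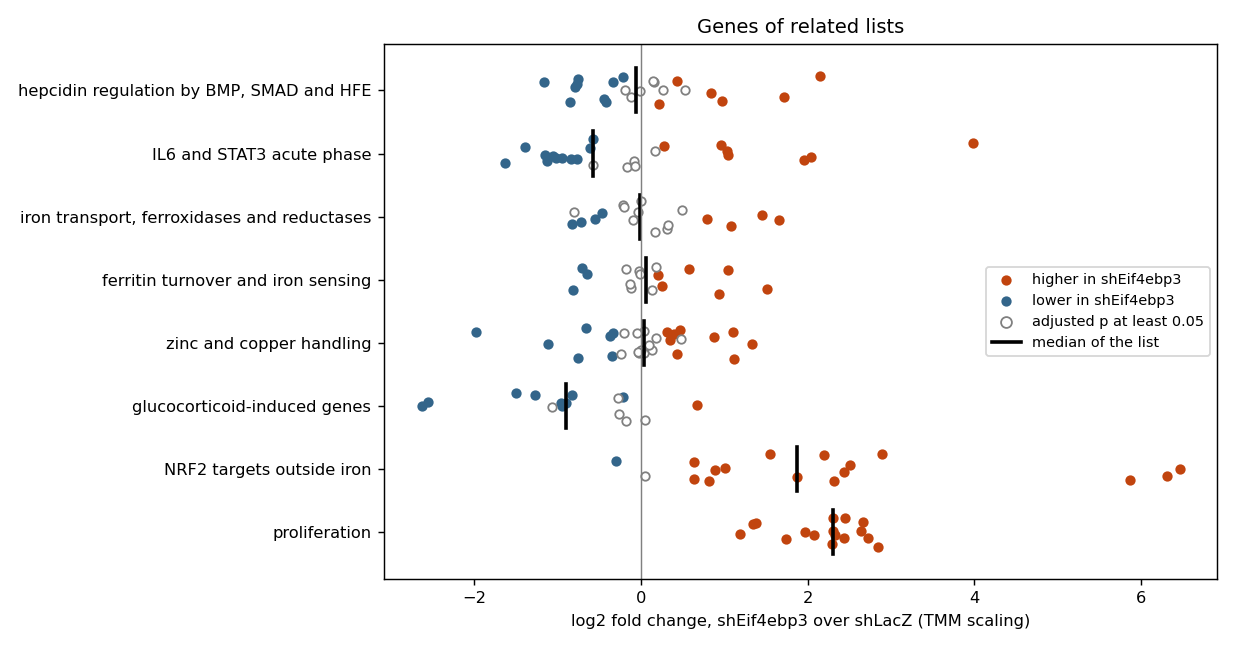
Log2 fold changes, knockdown (shEif4ebp3) over control (shLacZ), of the tested genes in 8 lists around iron and metal handling, with filled points for genes whose adjusted p was under 0.05, open points for the others and a bar for the median of each list. The lists of hepcidin regulation, iron transport, ferritin turnover and zinc and copper handling have medians of -0.06, -0.01, 0.06 and 0.04, while the glucocorticoid list lies at -0.90, the NRF2 list at 1.88 and proliferation at 2.30.

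Per kilobase of transcript, the mean levels of the 10 genes had the following order. In the knockdown livers the order was Trf (4350 CPM per kilobase), Ftl1 (2949), Fth1 (1602), Mt2 (359.8), Mt1 (292), Hamp (276), Slc40a1 (102), Tfrc (17.9), Hamp2 (15.4) and Bmp6 (1.32). The ranges of Mt2, Mt1 and Hamp overlapped with each other, as did those of Tfrc and Hamp2, so the order within these sets is not set. In the control livers Hamp, at 702 CPM per kilobase, stood next after Fth1 and before Mt2 (580.1), Mt1 (519) and Slc40a1 (58.4), and Hamp2 (23.7) stood before Tfrc (10.5). There the ranges of Hamp, Mt2 and Mt1 overlapped with each other, so the place of Hamp among the 3 is not set in either group.

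The spread between livers also differed among the transcripts. Mt1 and Mt2 were the most variable in the knockdown livers, with coefficients of variation of 47.7% and 53.7%, against 29.4% and 38.6% in the control livers. Hamp varied by 25.2% in the knockdown livers and 31.4% in the control livers, and Hamp2 by 15.8% in the knockdown livers and 36.3% in the control livers. Slc40a1 varied by 7.72% in the knockdown livers and 8.26% in the control livers. Whether these spreads differ between the groups was not tested.

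The genes with the profile nearest to a member over the 8 livers were found by the root mean square difference of centred log2 CPM. The 8750 genes compared had a mean of at least 10 CPM or were members. Nearest to Hamp were St3gal5 (0.131), a ganglioside sialyltransferase, Arg1 (0.180), the arginase of the urea cycle, and Fh1 (0.219), fumarase. Nearest to Tfrc were Ranbp1 (0.138), Mmp14 (0.142) and Myl12b (0.150), to Trf were Polr2l (0.0273), Rpl29 (0.0356) and Ube2z (0.0363), and to Slc40a1 were Arhgap1 (0.0646), Adam17 (0.0690) and Snx5 (0.0712). For Mt1 the nearest of all was Mt2 (0.217), followed by Sec22c (0.270) and Cyp3a25 (0.286). All livers share the 2 groups, so many genes that differ between the groups have a like profile.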

How the data were processed

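RNA of 8 livers was sequenced after Trizol extraction, DNase I treatment and Ribo-zero depletion, per the labels' protocols. The submitters' processing notes name mm10 and the tools SAMtools 1.9, GATK 3.8, Bowtie2 2.2.9 and fastp 0.19.5. No source used here gives the counting program, the annotation or the strandedness. The authors deposited expected counts per gene, not normalised, and 10.9% of the values, which are not whole, were rounded here. Of 56181 entries, 55536 carry a gene identifier, and 645 assembled loci were left out. A second table that the authors deposited holds their comparison, with the fold change (a ratio) of knockdown over control, its log2, a p-value and an adjusted p-value per gene, per the file headers, without stated settings.

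Analysis used R 4.3.3 with edgeR 4.0.16: filterByExpr kept 15375 genes, factors were TMM, and glmQLFit and glmQLFTest p-values were adjusted by Benjamini-Hochberg over all genes tested. The same steps were also run on simulated counts in which few genes changed, as many up as down, and libraries differed only in depth. That run does not cover the case here, where 57.2% of genes changed and TMM factors differed between the groups. The SE of a log2 fold change was derived as its size divided by the square root of the F value of glmQLFTest, which gives no SE. The 3 within-liver ratios used a pseudocount of 0.5. Total counts were 24371461 to 32389444. Replicates differed beyond counting error, with a chi-square per degree of freedom of at least 9.64. As the labels do not tell whether the samples are separate animals, p-values cover only the spread between the deposited libraries, which may be technical. Positions and transcripts are from the GENCODE mouse annotation of the mm10 build, and promoters from RefSeq.

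The 10 genes and 16 gene lists (263 symbols, 1 not matched) were chosen with earlier results of these data known. Named beside the 10 genes were Eif4ebp3, regulators listed by name, up to 4 genes of each list other than the cell markers with the smallest p-values (adjusted p under 0.05, mean of at least 1 CPM), and the 3 genes of at least 10 CPM nearest in profile to Hamp, Tfrc, Trf, Slc40a1 and Mt1. Txndc5, Gm20425 and Gm45774 were named for overlapping a member. Alternatives were DESeq2 1.42.0, limma-voom (limma 3.58.1), RLE and upper-quartile factors, total-count scaling, no filter or a filter on mean CPM, the assembled loci kept, a block for the replicate number, a covariate for the letter in the sample code, the samples coded C alone, a minimum fold of 1.5, and each sample left out in turn.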

Additional observations from a re-analysis of the deposited data

Results flagged for a closer look

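Among 106 groups of 4 livers (53 named genes in each group), 6 held a liver whose distance from the nearest other liver, as a share of the range, was above Dixon's critical value for 4 values. Chance flags about 5% of groups. Among the 10 genes this was Tfrc, at 103 CPM in knockdown replicate 2 against 82.0 to 83.0 CPM in the other knockdown livers. Tmprss6 was at 277 CPM in knockdown replicate 3, against 221 to 226 CPM in the other knockdown livers. Ccs was also highest in knockdown replicate 3, at 104 CPM against 73.0 to 77.3 CPM. Lcn2 was lowest in knockdown replicate 1, at 234 CPM against 339 to 358 CPM in the others. Slc30a10 was highest in knockdown replicate 4, at 18.3 CPM against 9.57 to 10.7 CPM. In the control group Slc30a1 was at 73.9 CPM in replicate 4, against 46.4 to 50.02 CPM in the other controls.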

How the results depend on the processing

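The calls of Hamp and Slc40a1 held under all 20 alternatives, and those of Tfrc and Fth1 under all but a minimum fold of 1.5, where their log2 fold changes of 0.77 and 0.34 did not pass. Under that minimum, 1 of the 10 genes was higher and 1 lower, Hamp2 (-0.62), Bmp6 (-0.61) and Mt1 (-0.83) lost their calls, and 3721 of all genes changed instead of 8800, 64.5% of them higher against 51.5%. The genes called under it were 7 of hepcidin regulation, 5 of iron transport, 3 of ferritin turnover, 6 of zinc and copper handling, 6 of the glucocorticoid list, 0 of the endothelial list and 2 of the erythroid list, which follows from the higher bar.

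Total-count scaling, which does not set the typical gene to no change as TMM does, put the median gene 0.567 higher on the log2 scale. It gave 5 higher genes and 1 lower gene, with Hamp2 at -0.0743, Bmp6 at -0.0393, Mt1 at -0.26, Trf at 0.75 and Ftl1 at 0.67, and 89.2% of the changed genes were higher. The number of genes that changed was then 13 for iron transport, 5 for the endothelial list, 8 for the erythroid list and 1 for neutrophils. Mtf1 (0.34), Slc30a1 (0.35) and Cp (0.48) changed sign. Upper-quartile factors left 2 genes lower, with Hamp2 at -0.55 and Mt1 at -0.75 no longer passing, and DESeq2 gave -0.83 for Mt1, which did not pass. Without a filter on low counts 1 neutrophil marker changed.

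Livers with the same replicate number were not shown to be paired: their deviations from the group means correlated at -0.13, -0.04, 0.06 and 0.15, and 1 of 4 numbers correlated best with itself. With the replicate number as a block Hamp2 (-0.57) lost its call and Mt2 (-0.73) passed, and no other call among the 10 genes changed. The sample codes carry a letter, C or D, which no label explains. With the letter as a covariate Mt2 passed (-0.77), and with the samples coded C alone Mt2 passed (-0.90) and Hamp2 did not (-0.35).

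With each liver left out in turn, 2 to 5 of the 10 genes were lower, Hamp2 ranged from -0.76 to -0.35, Mt1 from -1.20 to -0.64 and Mt2 from -1.12 to -0.47. Of the markers, 2 to 8 endothelial, 2 to 8 erythroid and 0 to 1 neutrophil genes changed. The causes of these differences were not tested. Of 860 values of the other 43 named genes under the alternatives, 833 kept their direction and their side of the threshold. Bmp6 and Hamp2 had the lowest CPM of the 10 genes, at most 15.1 CPM in any liver. The part of depth in their results was not tested.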
